A study of Mus musculus with 2 samples.

Results

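Cxcr3-positive cells among sorted splenic regulatory T cells (Tregs) of the mouse numbered 1665 of the 14150 cell barcodes of the series. They were chosen by measured values: a barcode had to hold at least 500 detected genes, at most 10% mitochondrial UMIs (unique molecular identifiers, 1 per captured transcript), no UMI of the B cell gene Cd79a, at least 1 UMI of Cxcr3 and no UMI of Ccl5, Ccr2, Il1rl1 or Sostdc1. Of these cells, 1144 were in the CD25KO library and 521 in the CD25WT library. They are set against 8986 Cxcr3-negative cells that met the same conditions with no Cxcr3 UMI, 3981 in CD25KO and 5005 in CD25WT. Because Cxcr3 picked the cells, its own level is no result, and every difference from Cxcr3-negative cells below is a description.

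The CD25KO cells came from mice of genotype CD25FL/FL-tdTomato+/+-Foxp3eGFPCretERT2+/+, and the CD25WT cells from mice of genotype CD25WT/WT-tdTomato+/+-Foxp3eGFPCretERT2+/+. Both groups carried the reporter alleles and the tamoxifen-inducible Cre made under the Foxp3 locus, and both received 2 mg/kg of intraperitoneal tamoxifen for 5 days. Each library pooled 2 spleens, collected 10 days later, and the age of the mice was not given. Live CD4 cells with GFP and tdTomato were sorted, and only for CD25KO did the gate also ask for low CD25. With 1 library a group nothing was tested: intervals are at 95% and cover counting error only, and deletion, gate and library cannot be told apart in any difference between CD25KO and CD25WT.

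Tregs restrain immune responses under the transcription factor Foxp3 and depend on interleukin-2, which their high-affinity receptor, with the CD25 chain encoded by Il2ra, captures. Some Tregs take up features of the helper cells they restrain. In the Th1-type form, the transcription factor T-bet, encoded by Tbx21, is made together with the chemokine receptor CXCR3, which guides T cells toward interferon-induced chemokines such as the product of Cxcl10.

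The Cxcr3-positive cells were 22.3% (Clopper-Pearson interval 21.2 to 23.5) of the CD25KO cells that met the conditions and 9.43% (8.67 to 10.2) of the CD25WT cells. The shares differed by more than counting error. Before the exclusion on Ccl5, Ccr2, Il1rl1 and Sostdc1 they were 26.9% in CD25KO and 10.6% in CD25WT, and the exclusion removed 715 Cxcr3-positive CD25KO cells and 121 Cxcr3-positive CD25WT cells. Thinning every cell to 2000 UMIs left out 372 CD25KO and 88 CD25WT cells, and the same exclusion was then applied to the thinned counts. It passed 5249 CD25KO and 5616 CD25WT cells, among them cells that it had removed before thinning. A Cxcr3 UMI was in 13.1% (12.2 to 14.1) of these CD25KO cells and 4.90% (4.35 to 5.49) of these CD25WT cells.

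Free RNA in droplets can give a UMI to a cell that does not express the gene. Among cells with a Cd79a UMI, taken here as the type that should lack Cxcr3, 8 of 50 CD25KO cells (16.0%, 7.17 to 29.1, median 4566 UMIs) and 3 of 59 CD25WT cells (5.08%, 1.06 to 14.1, median 5250 UMIs) held a Cxcr3 UMI. A Cd79a UMI can itself come from free RNA or a doublet, so these cells are no sure measure of that background. With 2 or more Cd79a UMIs, 3 of 22 CD25KO cells (13.6%, 2.91 to 34.9) and 1 of 21 CD25WT cells (4.76%, 0.12 to 23.8) held a Cxcr3 UMI. Those intervals are wide and contain the shares of 22.3% in CD25KO and 9.43% in CD25WT. The share of cells with a Cxcr3 UMI therefore cannot be set above this level in either library. Among the cells that the exclusion removed, a Cxcr3 UMI was in 52.0% (48.5 to 55.5) of those with Ccl5 in CD25KO and 39.9% (32.6 to 47.5) in CD25WT, and in 48.9% (44.7 to 53.0) of those with Ccr2 in CD25KO and 15% (9.93 to 21.3) in CD25WT. It was in 31.6% (26.8 to 36.8) of those with Il1rl1 in CD25KO and 7.95% (3.26 to 15.7) in CD25WT, and in 22.6% (18.6 to 26.9) of those with Sostdc1 in CD25KO and 18.6% (12.5 to 26.0) in CD25WT.

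**Figure D1:**
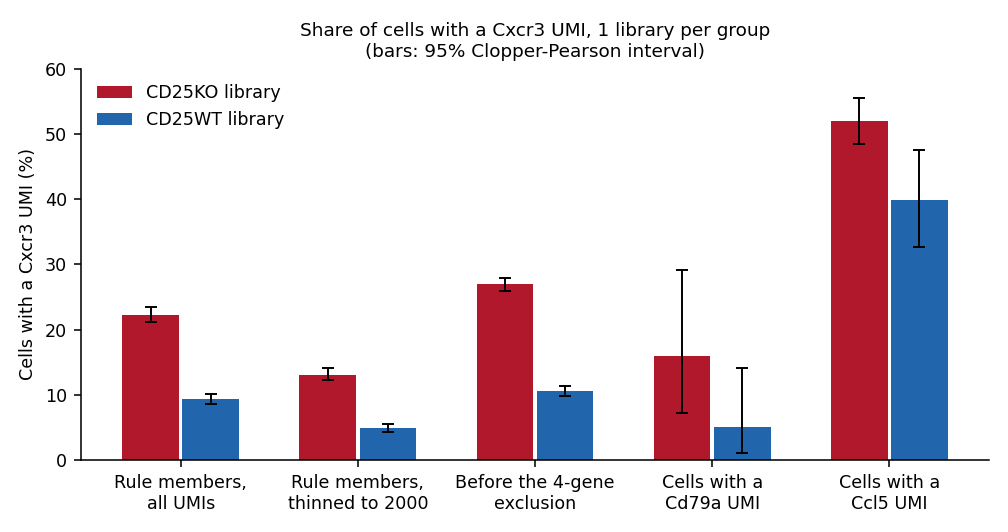
Share of cells with a Cxcr3 UMI (percent, y axis) in the CD25KO library (red) and the CD25WT library (blue), with bars for the 95% Clopper-Pearson interval. The cells that met the rule stand at 22.3% in CD25KO and 9.43% in CD25WT, and the intervals of the few cells with a Cd79a UMI reach 29.1% in CD25KO and 14.1% in CD25WT.

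At the edge of the rule, 665 of the Cxcr3-positive CD25KO cells (58.1%) and 309 of the Cxcr3-positive CD25WT cells (59.3%) held exactly 1 Cxcr3 UMI, against 0 in the cells just outside. A further 281 CD25KO and 136 CD25WT cells held 2, and 198 CD25KO and 76 CD25WT cells held 3 or more. The Cxcr3-positive cells were also deeper: their median was 4769 UMIs in CD25KO, against 3860 in Cxcr3-negative CD25KO cells, and 5363 in CD25WT, against 5216 in Cxcr3-negative CD25WT cells. In all, 6864760 UMIs lay in Cxcr3-positive CD25KO cells and 3427654 in Cxcr3-positive CD25WT cells. Barcodes found in both libraries numbered 107, and 10 Cxcr3-positive CD25KO cells and 3 Cxcr3-positive CD25WT cells carried one. Without them the Cxcr3-positive share was again 22.3% in CD25KO and 9.43% in CD25WT. Profiles of the same barcode had a median correlation of 0.22 between the libraries, against -0.056 when paired with the next shared barcode. All 107 entered these medians, though only 40 in CD25KO and 34 in CD25WT met the conditions on detected genes, mitochondrial UMIs and Cd79a. The cause of this likeness was not tested.

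Cd3e and the Treg gene Ikzf2 were found in most of the Cxcr3-positive cells, and Foxp3 in few. A Cd3e UMI, from a chain of the T cell receptor complex, was in 96.0% of Cxcr3-positive CD25KO cells and 96.7% of Cxcr3-positive CD25WT cells. Ikzf2, which encodes the Treg transcription factor Helios, was in 94.5% of Cxcr3-positive and 79.5% of Cxcr3-negative CD25KO cells, and in 86.6% of Cxcr3-positive and 65.2% of Cxcr3-negative CD25WT cells. Foxp3 itself was sparse, with a UMI in 7.69% of Cxcr3-positive and 9.34% of Cxcr3-negative CD25KO cells, and in 11.3% of Cxcr3-positive and 16.6% of Cxcr3-negative CD25WT cells. Among genes of other cells, the plasmacytoid dendritic gene Siglech, the natural killer T cell factor gene Zbtb16 and the natural killer receptor gene Klrk1 were at 0 in Cxcr3-positive cells of both libraries. Siglech was nearly absent from Cxcr3-negative cells too, with a UMI in 0 of 3981 CD25KO and 2 of 5005 CD25WT cells. Eomes, another gene looked at for natural killer cells, did have UMIs in Cxcr3-positive cells, given below. For Siglech, a count of 0 of 1144 CD25KO cells allows a share of cells with a UMI of up to 0.262% (3 counts of the total), and 0 of 521 CD25WT cells one of up to 0.576%, which limits detection and not expression. Other markers were detected: the natural killer receptor gene Klrb1c in 8 Cxcr3-positive CD25KO cells and 2 Cxcr3-positive CD25WT cells, and the myeloid gene Lyz2 in 4 Cxcr3-positive CD25KO cells and 7 Cxcr3-positive CD25WT cells. The summed list of natural killer and cytotoxic genes was at 143 CPM in Cxcr3-positive and 55.5 CPM in Cxcr3-negative CD25KO cells. In CD25WT that list was at 65.1 CPM in Cxcr3-positive and 35.6 CPM in Cxcr3-negative cells. Most of each of these sums was Nkg7, which is also counted among the Th1-type genes below. Nkg7 alone was at 126 CPM in Cxcr3-positive and 38.7 CPM in Cxcr3-negative CD25KO cells. In CD25WT it was at 47.3 CPM in Cxcr3-positive and 22.7 CPM in Cxcr3-negative cells. The sums of this list therefore mostly repeat the level of Nkg7. The summed B cell list was at 492 CPM in Cxcr3-positive and 436 CPM in Cxcr3-negative CD25KO cells, and at 372 CPM in Cxcr3-positive and 217 CPM in Cxcr3-negative CD25WT cells. The myeloid list was at 141 CPM in Cxcr3-positive and 149.8 CPM in Cxcr3-negative CD25KO cells, and at 225 CPM in Cxcr3-positive and 113 CPM in Cxcr3-negative CD25WT cells. Their part in the results was not tested. The CD8 gene Cd8a was in 1 Cxcr3-positive CD25KO cell and 2 Cxcr3-positive CD25WT cells.

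Levels below are UMIs summed over the cells of a library and scaled to 1000000 UMIs of that sum (CPM). Il2ra, the targeted gene, was at 17 CPM in Cxcr3-positive CD25KO cells and 66.2 CPM in Cxcr3-positive CD25WT cells, a log2 ratio of CD25KO over CD25WT of -1.96 (-2.29 to -1.63). It was lower in Cxcr3-positive than in Cxcr3-negative cells of both libraries, which held 37.6 CPM in CD25KO and 137 CPM in CD25WT. The log2 ratio of Cxcr3-positive over Cxcr3-negative cells was -1.14 (-1.44 to -0.86) in CD25KO and -1.05 (-1.24 to -0.85) in CD25WT. Reads of the 3' end can lie outside the deleted part, and the sort acts on the product of the gene, so Il2ra is no check of the deletion.

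The signalling chains of the receptor differed less. Il2rb, the beta chain, was at 221 CPM in Cxcr3-positive and 166 CPM in Cxcr3-negative CD25KO cells, and at 216 CPM in Cxcr3-positive and 171 CPM in Cxcr3-negative CD25WT cells. Il2rg, the common gamma chain, was at 286 CPM in Cxcr3-positive and 287 CPM in Cxcr3-negative CD25KO cells, and at 237 CPM in Cxcr3-positive and 247 CPM in Cxcr3-negative CD25WT cells. Foxp3 was at 14.7 CPM in Cxcr3-positive and 22.7 CPM in Cxcr3-negative CD25KO cells, a log2 ratio of -0.63, and at 20.7 CPM in Cxcr3-positive and 36.7 CPM in Cxcr3-negative CD25WT cells, a ratio of -0.82.

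Tbx21, the one marker of the Th1-type name that the rule did not use, was higher in Cxcr3-positive cells but rare. A Tbx21 UMI was found in 68 Cxcr3-positive CD25KO cells (5.94%, 4.65 to 7.47) and in 1.48% of Cxcr3-negative CD25KO cells, and in 25 Cxcr3-positive CD25WT cells (4.80%, 3.13 to 7.0) and 0.559% of Cxcr3-negative CD25WT cells. At 2000 UMIs per cell, Tbx21 was in 2.37% of Cxcr3-positive and 0.806% of Cxcr3-negative CD25KO cells, and in 1.37% of Cxcr3-positive and 0.182% of Cxcr3-negative CD25WT cells. Its level was 11.4 CPM in Cxcr3-positive and 3.94 CPM in Cxcr3-negative CD25KO cells, a log2 ratio of 1.53 (1.04 to 2.01), and 7.88 CPM in Cxcr3-positive and 1.13 CPM in Cxcr3-negative CD25WT cells, a ratio of 2.80 (2.00 to 3.58). Between the Cxcr3-positive cells of CD25KO and CD25WT the interval of the Tbx21 ratio crossed 0 (0.53, -0.12 to 1.22).

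The wider Th1-type list was split, and the cells are therefore called by the rule. Of its 24 genes, 12 had a mean of at least 10 CPM over the compared cells of each library, and of these Nkg7 was at least 2-fold higher in Cxcr3-positive cells of both libraries and Ifngr2 at least 2-fold lower. Over all 6843 genes measured, 48 genes (0.701%) were higher by 2-fold or more in both libraries and 16 (0.234%) were lower by as much. The median log2 ratio of the 12 genes was 0.13 in CD25KO and 0.32 in CD25WT, beside 0.02 in CD25KO and 0.16 in CD25WT over all genes. Among the 12 scarcer genes, Tbx21, Cxcr6, Ifng and Gzmk were each at least 2-fold higher in Cxcr3-positive cells of both libraries. Eomes, a relative of Tbx21, was lower in CD25KO (4 UMIs in Cxcr3-positive and 68 in Cxcr3-negative cells) and higher in CD25WT (14 in Cxcr3-positive and 49 in Cxcr3-negative cells).

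Among the Th1-type genes, Nkg7, a granule protein of cytotoxic and Th1 cells, was at 126 CPM in Cxcr3-positive and 38.7 CPM in Cxcr3-negative CD25KO cells, and at 47.3 CPM in Cxcr3-positive and 22.7 CPM in Cxcr3-negative CD25WT cells. The log2 ratios were 1.71 in CD25KO and 1.06 in CD25WT. Runx3, a partner of T-bet, stood at 0.64 in CD25KO and 0.62 in CD25WT, and Id2, a regulator of effector differentiation, at 0.70 in CD25KO and 1.14 in CD25WT. Il18r1, a chain of the IL-18 receptor, stood at 0.57 in CD25KO and 0.38 in CD25WT. Ifngr2, the signalling chain of the interferon gamma receptor, was at 5.97 CPM in Cxcr3-positive and 18.4 CPM in Cxcr3-negative CD25KO cells, and at 7.88 CPM in Cxcr3-positive and 24.4 CPM in Cxcr3-negative CD25WT cells, a ratio of -1.63 in both libraries. The kinase gene Txk was at -0.90 in CD25KO and -1.55 in CD25WT.

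The chemokine receptor gene Cxcr6 and the cytokine gene Ifng were higher in Cxcr3-positive cells but scarce. Cxcr6 was at 25.2 CPM in Cxcr3-positive and 7.33 CPM in Cxcr3-negative CD25KO cells, and at 4.96 CPM in Cxcr3-positive and 1.70 CPM in Cxcr3-negative CD25WT cells. Ifng, the interferon gamma gene, had a UMI in 4.37% of Cxcr3-positive and 1.46% of Cxcr3-negative CD25KO cells, and in 3.84% of Cxcr3-positive and 0.879% of Cxcr3-negative CD25WT cells. Of the 22 measured genes of the interferon response list, none was at least 2-fold apart in both libraries, and the median was -0.23 in CD25KO and -0.14 in CD25WT, below that of all genes. By ratio 14 genes lay below 0 and 7 above 0 in both libraries. Among them Igtp, an interferon-induced GTPase, was at -0.78 in CD25KO and -0.57 in CD25WT, and the abundant interferon-induced gene Ifi27l2a at 0.54 in CD25KO and 0.71 in CD25WT. The summed level of the list was higher in Cxcr3-positive cells, at 6346 CPM, against 5694 CPM in Cxcr3-negative CD25KO cells, and at 5015 CPM, against 4055 CPM in Cxcr3-negative CD25WT cells.

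The 68 Tbx21-positive CD25KO cells among the Cxcr3-positive cells were deeper and had higher S100a6 and Mki67 levels than the 1076 without a Tbx21 UMI. Their median was 6738 UMIs, against 4646 without Tbx21. S100a6 was at 1726 CPM with Tbx21 and 1012 CPM without, and the proliferation marker Mki67 at 260.1 CPM with and 94.3 CPM without. In CD25WT, the 25 cells with Tbx21 had a median of 6424 UMIs, against 5342 in the 496 without, with S100a6 at 782 CPM with Tbx21 and 383 CPM without and Mki67 at 172 CPM with and 40.2 CPM without. Nkg7 was at 271 CPM with Tbx21 and 111 CPM without in CD25KO, but at 27.9 CPM with and 48.6 CPM without in CD25WT. Il18r1 was at 99.4 CPM with and 72.5 CPM without in CD25KO, but at 23.3 CPM with and 40.2 CPM without in CD25WT. The part of depth in these values was not tested.

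Effector Treg genes were higher in Cxcr3-positive cells of both libraries. Of the 24 genes of the effector Treg list, 18 were measured, 6 were at least 2-fold higher in both libraries and none lower, 17 had a ratio above 0 in both, and the median log2 ratio was 0.81 in CD25KO and 1.47 in CD25WT. S100a6, a calcium-binding protein, was at 1080.2 CPM in Cxcr3-positive and 335 CPM in Cxcr3-negative CD25KO cells, and at 408 CPM in Cxcr3-positive and 61.6 CPM in Cxcr3-negative CD25WT cells, ratios of 1.69 (1.64 to 1.74) in CD25KO and 2.73 (2.63 to 2.83) in CD25WT. S100a4, another of that family, was at 565 CPM in Cxcr3-positive and 177 CPM in Cxcr3-negative CD25KO cells, and at 150.0 CPM in Cxcr3-positive and 41.9 CPM in Cxcr3-negative CD25WT cells.

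Itgb1, the beta-1 integrin chain, was detected in 74.2% of Cxcr3-positive and 42.7% of Cxcr3-negative CD25KO cells, and in 65.1% of Cxcr3-positive and 25.2% of Cxcr3-negative CD25WT cells. Its level was 597 CPM in Cxcr3-positive and 261 CPM in Cxcr3-negative CD25KO cells, and 355 CPM in Cxcr3-positive and 95.7 CPM in Cxcr3-negative CD25WT cells, ratios of 1.19 in CD25KO and 1.89 in CD25WT. The galectin genes Lgals1 and Lgals3 stood at 1.37 and 1.88 in CD25KO and at 1.56 and 3.82 in CD25WT. Ctla2a, a cysteine protease inhibitor gene, was at 52.3 CPM in Cxcr3-positive and 17.7 CPM in Cxcr3-negative CD25KO cells, and at 45.8 CPM in Cxcr3-positive and 9.44 CPM in Cxcr3-negative CD25WT cells. Itgb1 and both S100 genes were higher in Cxcr3-positive cells by more than counting error in both libraries, but among cells with a Foxp3 UMI S100a4 stood at -1.28 in CD25WT, with 5 UMIs in Cxcr3-positive cells.

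Genes of central, resting Tregs were lower in Cxcr3-positive cells. Of the 14 genes of the central Treg and quiescence list, all measured, 4 were at least 2-fold lower in both libraries (Bach2, Igfbp4, Ly6c1 and Satb1) and none higher, with a median of -0.43 in CD25KO and -0.89 in CD25WT. Satb1, a chromatin organiser, was at 43.4 CPM in Cxcr3-positive and 125 CPM in Cxcr3-negative CD25KO cells, and at 45.5 CPM in Cxcr3-positive and 209.9 CPM in Cxcr3-negative CD25WT cells. Bach2, a repressor that restrains effector differentiation, was at 16.2 CPM in Cxcr3-positive and 39.0 CPM in Cxcr3-negative CD25KO cells, and at 26.8 CPM in Cxcr3-positive and 62.7 CPM in Cxcr3-negative CD25WT cells. Igfbp4 and Ly6c1 were the lowest, at log2 ratios of -3.57 and -4.06 in CD25KO and of -4.07 and -3.03 in CD25WT, and reads of Ly6c1 may be shared with its near copy Ly6c2.

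**Figure D2:**
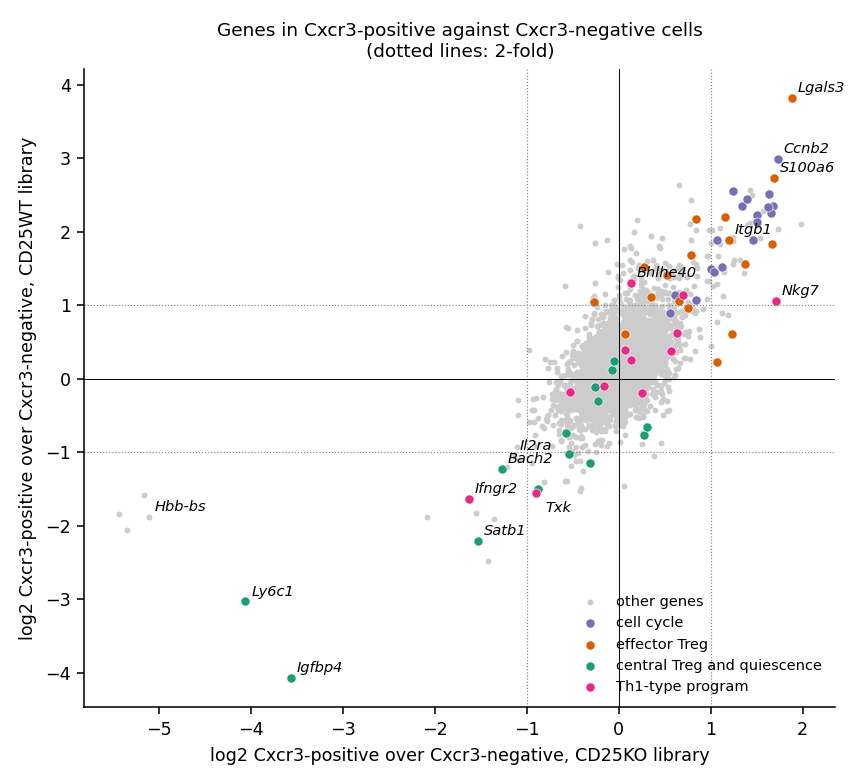
Log2 ratio of Cxcr3-positive over Cxcr3-negative cells in the CD25KO library (x axis) and the CD25WT library (y axis), 1 point per gene among 6843, with 4 gene lists in colour and dotted lines at 2-fold. Cell cycle and effector genes lie at the upper right and central genes such as Satb1 at the lower left, while Th1-type genes spread from Nkg7 to Ifngr2.

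Of the 16 genes at least 2-fold lower, 4 were haemoglobin genes, whose transcripts mark red cells and whose copies Hba-a1 and Hba-a2 share reads. The summed level of the erythroid and platelet list was 98.5 CPM in Cxcr3-positive and 3519 CPM in Cxcr3-negative CD25KO cells, and 1209 CPM in Cxcr3-positive and 4380 CPM in Cxcr3-negative CD25WT cells. Few cells held these UMIs: among Cxcr3-positive CD25WT cells 1 cell held 4268 of 4741 haemoglobin UMIs (90.0%), and among Cxcr3-negative cells 18 of 3981 CD25KO cells held 97.6% of 71520 and 27 of 5005 CD25WT cells held 97.0% of 141666. The other genes at least 2-fold lower were Atp1b1, Dapl1, Filip1l, Il2ra, Il4ra, Treml2, Ifngr2, the 4 central genes above and an unnamed gene model. Il4ra, the IL-4 receptor chain, stood at -1.08 in CD25KO and -1.10 in CD25WT. Without cells holding 2 or more UMIs of a marker of another lineage, 37 genes were higher and 12 lower, and no haemoglobin gene was among these 12.

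Cell cycle genes made up 15 of the 48 genes at least 2-fold higher, and 18 of the 22 genes of the cell cycle list were measured, with a median of 1.37 in CD25KO and 2.18 in CD25WT. Mki67 was detected in 10.9% of Cxcr3-positive and 3.14% of Cxcr3-negative CD25KO cells, and in 9.21% of Cxcr3-positive and 1.58% of Cxcr3-negative CD25WT cells. Its level was 110.1 CPM in Cxcr3-positive and 34.4 CPM in Cxcr3-negative CD25KO cells, and 48.4 CPM in Cxcr3-positive and 9.51 CPM in Cxcr3-negative CD25WT cells. Top2a, the topoisomerase of dividing cells, was at 168 CPM in Cxcr3-positive and 59.3 CPM in Cxcr3-negative CD25KO cells, and at 96.6 CPM in Cxcr3-positive and 21.9 CPM in Cxcr3-negative CD25WT cells. Ccnb2, a mitotic cyclin, stood at 1.73 in CD25KO and 3.0 in CD25WT, and Pclaf, a partner of the replication clamp, at 1.74 in CD25KO and 3.01 in CD25WT. The linker histone gene Hist1h1b stood at 1.98 in CD25KO and 2.11 in CD25WT. Histone genes have near copies, and their reads can be shared.

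The promoters of 2 of these genes are shown because the cell cycle list moved together and many late cell cycle promoters are known to carry a CHR element with CCAAT boxes. The sequences are RefSeq's, on GRCm38.p6, 250 bases before to 50 after the start site, at chr9:70421505-70421804 for Ccnb2 and chr7:135716330-135716629 for Mki67, both genes on the minus strand and printed 5′ to 3′ of the gene. Capitals mark TTTGAA, the CHR core, and CCAAT, each searched on both strands.
Ccnb2: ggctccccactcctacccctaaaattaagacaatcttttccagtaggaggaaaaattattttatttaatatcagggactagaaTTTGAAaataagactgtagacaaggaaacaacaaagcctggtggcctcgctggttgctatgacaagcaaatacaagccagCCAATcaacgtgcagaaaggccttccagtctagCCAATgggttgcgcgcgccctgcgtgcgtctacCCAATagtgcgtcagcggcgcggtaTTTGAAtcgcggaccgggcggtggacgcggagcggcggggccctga
Mki67: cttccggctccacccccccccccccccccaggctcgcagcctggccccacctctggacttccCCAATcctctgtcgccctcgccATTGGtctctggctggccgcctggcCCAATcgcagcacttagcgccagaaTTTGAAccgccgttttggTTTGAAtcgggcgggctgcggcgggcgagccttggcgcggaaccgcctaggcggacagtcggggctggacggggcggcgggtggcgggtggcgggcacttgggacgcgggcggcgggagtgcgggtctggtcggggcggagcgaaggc
Each window held 2 matches to TTTGAA and 3 to CCAAT. RefSeq windows were matched to 18 of the 22 genes of the cell cycle list, and of these 8 held both motifs, 8 held TTTGAA and 14 held CCAAT. Among all 32851 windows of the same length, 17.9% held TTTGAA, 37.4% CCAAT and 6.95% both. The T-box letters GGTGTGA were in 0 of the 18 windows and in 3.98% of all windows. A match is a description of letters and not a bound site.

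The cell cycle difference moved with cell depth and with a few cells, and the effector and central differences moved less. With Cxcr3-negative cells weighted to the UMI deciles of Cxcr3-positive cells, the cell cycle median was 0.47 in CD25KO and 1.12 in CD25WT. No gene of the cell cycle list was then 2-fold higher in both libraries. The genes at least 2-fold higher then numbered 6, namely Chst2, Ctla2a, Itgb1, Lgals3, S100a4 and S100a6, and 15 were lower. The effector Treg median under that weighting was 0.72 in CD25KO and 1.47 in CD25WT, and the central Treg and quiescence median -0.33 in CD25KO and -0.83 in CD25WT.

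Leaving out cells with a Mki67 or Top2a UMI left 9 genes at least 2-fold higher, 8 of them among the 48 (Anxa2, Chst2, Ctla2a, Ifitm2, Itgb1, Nkg7, S100a4 and S100a6), and 15 lower. Without the cells in the top 5% of UMIs of each library, where doublets would fall, 12 genes were higher and 12 lower. Without cells of a barcode found in both libraries, 30 were higher and 17 lower, with a cell cycle median of 1.08 in CD25KO and 2.07 in CD25WT. With each cell weighted the same, 20 were higher and 15 lower. In cells thinned to 2000 UMIs, 21 were higher and 16 lower, and a Cxcr3 UMI remained in 20.9% (17.7 to 24.5) of cycling CD25KO cells and 11.7% of the others, and in 13.9% (10.2 to 18.3) of cycling CD25WT cells and 4.20% of the others.

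**Figure D3:**
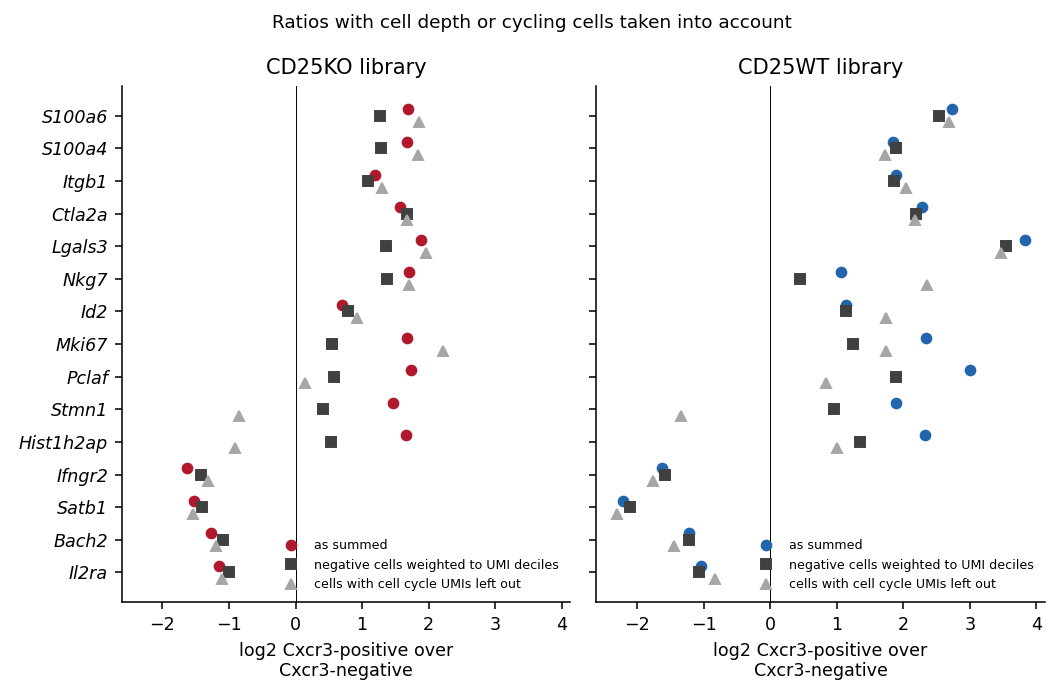
Log2 ratio of Cxcr3-positive over Cxcr3-negative cells (x axis) for 15 genes in the CD25KO library (left) and the CD25WT library (right), as summed (circles), with Cxcr3-negative cells weighted to UMI deciles (squares) and without cells of 2 or more cell cycle UMIs (triangles). Satb1, Bach2, Itgb1 and Ctla2a keep their side of 0 under all 3, while Stmn1 moves to -0.85 in CD25KO and -1.35 in CD25WT without cells of 2 or more cell cycle UMIs.

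Within the Cxcr3-positive cells, levels changed with the number of Cxcr3 UMIs, and so did depth. In CD25KO, median UMIs were 4235 in cells with 1 Cxcr3 UMI, 5140 with 2 and 6330 with 3 or more, and in CD25WT they were 5152, 5539 and 6863. Itgb1 was at 516, 621 and 734 CPM in CD25KO, and at 335, 291 and 515 CPM in CD25WT. Satb1 was at 54.1, 40.7 and 24.8 CPM in CD25KO, and at 65.6, 13.7 and 34.0 CPM in CD25WT. Cells with a single Cxcr3 UMI, just inside the rule, already differed from Cxcr3-negative cells in these genes by more than counting error. Mki67 was at 71.5, 118 and 180.2 CPM in CD25KO, and at 25.8, 58.9 and 100.3 CPM in CD25WT. Tbx21 was at 10.0, 10.2 and 15.3 CPM in CD25KO and at 6.99, 10.5 and 6.47 CPM in CD25WT, with intervals that overlap within each library.

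**Figure D4:**
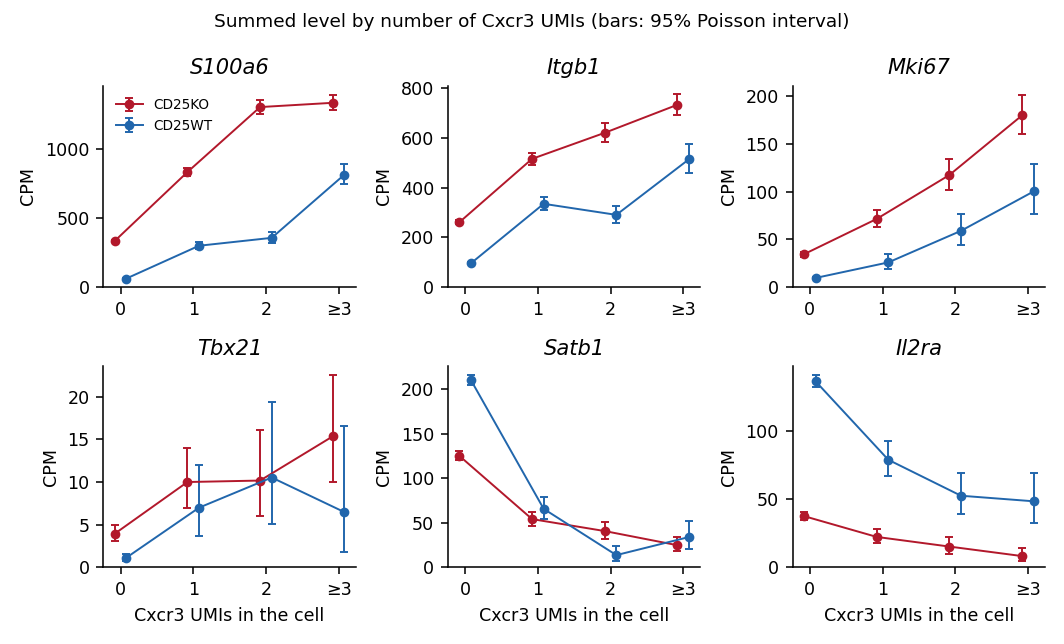
Summed level (CPM, y axis) of 6 genes in cells with 0, 1, 2 and 3 or more Cxcr3 UMIs (x axis) in the CD25KO library (red) and the CD25WT library (blue), with bars for the 95% Poisson interval. Itgb1 and Mki67 are higher at 1 Cxcr3 UMI than at 0 in both libraries, and Satb1 and Il2ra lower.

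The Cxcr3-positive cells that the exclusion removed held more of the same effector genes. In CD25KO, S100a6 was at 1080.2 CPM in the Cxcr3-positive cells described here and 2741 CPM in those removed, and in CD25WT at 408 CPM in those described and 1064 CPM in those removed. Gzmb, the gene of granzyme B, was at 15.4 CPM in the CD25KO cells described and 178 CPM in those removed, and at 0.88 CPM in the CD25WT cells described and 17 CPM in those removed. Nkg7 was at 126 CPM in the CD25KO cells described and 475 CPM in those removed, and at 47.3 CPM in the CD25WT cells described and 275 CPM in those removed.

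Within Cxcr3-positive cells, CD25KO was set against CD25WT. Of 7231 genes measured, 96 (1.33%) had a CD25KO level 2-fold or more above that of CD25WT and 24 (0.332%) one 2-fold or more below it, with a median log2 ratio of 0.10. In Cxcr3-negative cells, 260 of 7029 genes (3.7%) were higher and 38 (0.541%) lower, with a median of 0.23. Of 6860 genes measured in both, 43 were higher and 13 lower by 2-fold or more in both kinds of cell. The share of higher genes among those 2-fold apart was 80.0% in Cxcr3-positive and 87.2% in Cxcr3-negative cells, and with TMM factors (trimmed mean of M values) 69.6% in Cxcr3-positive and 66.2% in Cxcr3-negative cells. Without ribosomal protein and mitochondrial genes in the total it was 67.9% in Cxcr3-positive and 74.1% in Cxcr3-negative cells. Of the 24 lower genes, 4 were haemoglobin and 3 MHC class II genes, most of whose UMIs lay in 1 and 2 Cxcr3-positive CD25WT cells. Without cells holding markers of another lineage, 104 genes were higher and 23 lower, none of them among these 7. Without cells of a shared barcode, 96 were higher and 26 lower, and in cells thinned to 2000 UMIs 188 were higher and 64 lower. Ribosomal protein genes took 30.8% of UMIs in Cxcr3-positive CD25KO cells and 35.3% in Cxcr3-positive CD25WT cells.

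The highest ratio in Cxcr3-positive cells among genes of at least 30 CPM was that of S100a4, at 565 CPM in CD25KO and 150.0 CPM in CD25WT, a log2 ratio of 1.91 (1.78 to 2.05). Cxcl10, the chemokine gene whose product binds CXCR3, was at 109 CPM in CD25KO and 36.8 CPM in CD25WT, a ratio of 1.57 (1.29 to 1.85). Its ratio in Cxcr3-negative cells was larger, at 2.59 (2.42 to 2.75), from 81.3 CPM in CD25KO and 13.5 CPM in CD25WT. In Cxcr3-positive cells Nkg7 stood at 1.42 (1.17 to 1.67) and S100a6 at 1.40 (1.32 to 1.49). The IL-1 decoy receptor gene Il1r2 stood there at 1.35 (1.0 to 1.71) and the nuclear receptor gene Rora at 1.34 (1.06 to 1.63). The other genes of the highest 12 were Sap30l (1.81), the centromere gene Cenpf (1.72), Ube2m (1.48), Ppp1r14b (1.42), Hnrnpd (1.41) and Akirin2 (1.39).

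Among the lower genes, Gstp1, a glutathione transferase with a near copy, was at 17.9 CPM in Cxcr3-positive CD25KO cells and 63.3 CPM in Cxcr3-positive CD25WT cells, a ratio of -1.82 (-2.15 to -1.50). Tsc22d3, a glucocorticoid target, was at 73.6 CPM in CD25KO and 154 CPM in CD25WT (-1.06), and Ddit4, an inhibitor of mTORC1, at 107 CPM in CD25KO and 211 CPM in CD25WT (-0.98). The histone gene Hist1h2ap was at 62.1 CPM in CD25KO and 233 CPM in CD25WT (-1.91), while the histone gene Hist1h1b stood at 1.31. Gpr83, a Treg receptor, stood at -1.40, the AP-1 subunit gene Jun at -1.84 and the signalling inhibitor Pik3ip1 at -0.89.

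By list, 4 of 20 measured effector Treg genes were at least 2-fold higher in Cxcr3-positive CD25KO cells than in Cxcr3-positive CD25WT cells, with a median of 0.76, beside 12 of 18 and 1.57 between the Cxcr3-negative cells. None of the 12 central Treg and quiescence genes was 2-fold apart in Cxcr3-positive cells (median -0.06), beside 4 of 14 lower and a median of -0.76 in Cxcr3-negative cells. Follicular regulatory genes had a median of 0.63 with 1 of 9 higher in Cxcr3-positive cells, beside 1.59 and 8 of 9 in Cxcr3-negative cells. Suppressive molecules had a median of 0.26 with 1 of 9 higher in Cxcr3-positive cells, beside 1.11 and 4 of 8 in Cxcr3-negative cells. The Th1-type list had 3 of 12 genes higher (Bhlhe40, Cxcr6 and Nkg7) and a median of 0.52, beside 2 of 12 and 0.46 in Cxcr3-negative cells. Of 16 genes responsive to IL-2 and STAT5, Il1r2 was higher and Gpr83 and Socs2 lower in Cxcr3-positive cells, with a median of -0.19. In Cxcr3-negative cells 2 of 17 were higher and 6 lower, with a median of -0.35.

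Single genes showed the unequal differences. Lag3, an inhibitory receptor, was at 68.2 CPM in Cxcr3-positive CD25KO and 47.6 CPM in Cxcr3-positive CD25WT cells (0.52, 0.26 to 0.79), beside 62.5 CPM in Cxcr3-negative CD25KO and 13.6 CPM in Cxcr3-negative CD25WT cells (2.20). Tox2, a factor of follicular cells, stood at 0.67 in Cxcr3-positive and 2.51 in Cxcr3-negative cells, and Il1r2 at 1.35 in Cxcr3-positive and 3.37 in Cxcr3-negative cells. Maf, a transcription factor of effector and follicular cells, stood at 0.68 in Cxcr3-positive and 1.92 in Cxcr3-negative cells. Il2ra stood at -1.96 in Cxcr3-positive and -1.86 in Cxcr3-negative cells, and S100a4 at 1.91 in Cxcr3-positive and 2.08 in Cxcr3-negative cells. With 1 library a group, whether the ratios differ between the 2 kinds of cell was not tested.

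**Figure D5:**
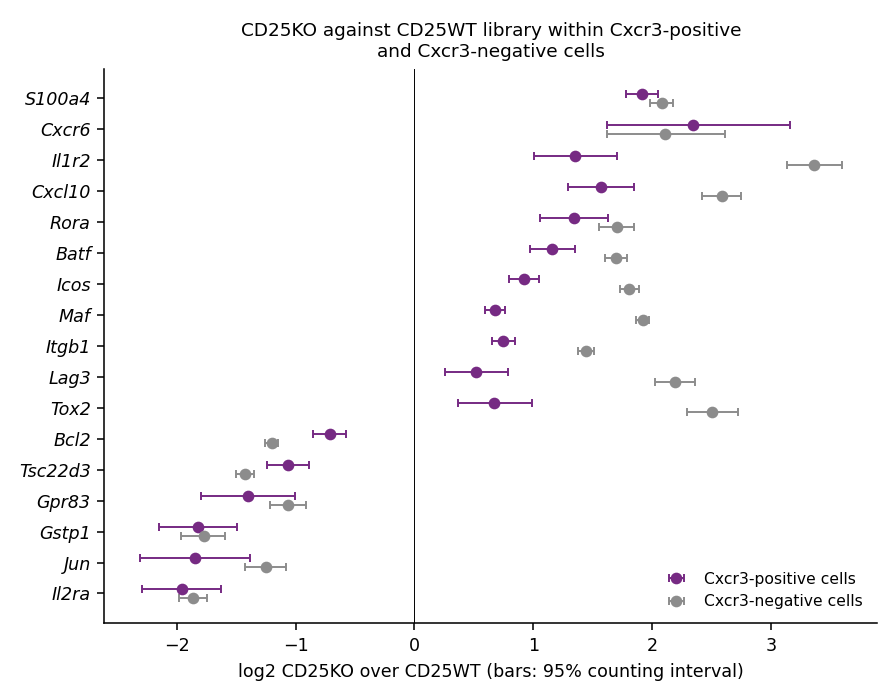
Log2 ratio of CD25KO over CD25WT (x axis) within Cxcr3-positive cells (purple) and Cxcr3-negative cells (grey) for 17 genes, with bars for the 95% counting interval. Lag3, Tox2 and Il1r2 lie nearer 0 in Cxcr3-positive cells, while S100a4, Gstp1 and Il2ra lie close together in both.

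Seen the other way, Cxcr3-positive and Cxcr3-negative cells stood further apart in CD25WT. Of the 9 measured follicular regulatory genes, Cxcr3-positive cells had 0 genes 2-fold or more higher in CD25KO and 7 in CD25WT, with a median of 0.12 in CD25KO and 1.41 in CD25WT. Of the 8 suppressive molecules measured, 0 were 2-fold higher in CD25KO and 4 in CD25WT, with a median of 0.07 in CD25KO and 1.11 in CD25WT. Over all 6843 genes measured, 54 were 2-fold or more higher in Cxcr3-positive cells in CD25KO and 213 in CD25WT. Whether the CD25KO and CD25WT ratios differ was not tested. The median over all genes was itself 0.16 in CD25WT, and -0.05 with TMM factors, a shift that every CD25WT ratio carries. The same scaling took the median of CD25KO over CD25WT in Cxcr3-negative cells to -0.05. The T cell receptor activation list had a median of -0.41 in CD25KO and -0.12 in CD25WT, with 0 of 12 genes 2-fold apart in both libraries.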

How the data were processed

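Single-cell RNA of sorted mouse splenic Tregs was read as 10x Genomics 3' libraries, 1 per group. The deposited values are UMI counts per gene and cell, written by Cell Ranger 6.0.0 per the file headers, on mm10 per the submitters' processing notes. No source used here names the gene annotation behind the counts. The libraries held 36986849 UMIs in 7530 barcodes (CD25KO) and 36971834 UMIs in 6620 barcodes (CD25WT).

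Counts were summed per library and cell group and scaled to CPM. A gene counted as measured where the mean of the 2 compared cell groups reached 10 CPM (in each library, for Cxcr3-positive over Cxcr3-negative cells), and it was counted as higher or lower at a 2-fold difference or more. Log2 ratios carry an exact conditional 95% interval, levels a Poisson and shares a Clopper-Pearson interval. No doublet caller was run. For simulated data with 200 changed genes drawn from the CD25KO and CD25WT sums of Cxcr3-positive cells, 2 of 7032 unchanged genes passed 2-fold and 95.7% of the intervals of unchanged genes held their true ratio. The simulated counts were Poisson, the model that the intervals assume. They check the calculation only, and hold no spread between cells or libraries.

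The text names Cxcr3, Tbx21, Foxp3 and the IL-2 receptor genes. It further names the 12 genes per direction with the largest ratio, of at least 20 CPM for Cxcr3-positive over Cxcr3-negative cells and 30 CPM for CD25KO over CD25WT, without ribosomal, mitochondrial, haemoglobin, receptor segment and unnamed genes, and up to 4 genes of each list. Some genes that the rule takes are left out here. Any other gene named was picked with its values in view. The cells, lists and comparisons were chosen with earlier results of these data known. Alternatives covered cell filters, depth, scaling, exclusions and gene minimum. Python 3.11.15, numpy 2.4.6, scipy 1.17.1, pandas 2.3.3, and R 4.3.3 with edgeR 4.0.16 (TMM factors only) were used.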

Additional observations from a re-analysis of the deposited data

How the results depend on the processing

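No paired analysis was possible because each group was 1 library and the labels give no replicate numbers. With 1 library a group nothing could be left out in turn. Values under the alternatives were scored for the ranked genes, Tbx21, Foxp3 and the IL-2 receptor genes. Genes named only from a list were not scored. Of the scored values, 1893 stayed within the interval of the main value and 571 moved outside it. A further 19, from main ratios of 2-fold or more, changed sign. Sign changes of smaller ratios were not counted apart. Leaving out cells with a barcode in both libraries and leaving out cells with 2 or more cell cycle UMIs were alternatives chosen after seeing the data. The latter counted UMIs of the cell cycle list without Stmn1 and Hmgb2, and is called without cell cycle UMIs below.

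The share of Cxcr3-positive cells in CD25KO and in CD25WT was 25.0% and 8.34% with at least 1000 genes and at most 5% mitochondrial UMIs, 9.35% and 3.84% with at least 2 Cxcr3 UMIs, and 26.9% and 10.6% with no exclusion on the 4 genes. It was 19.1% and 6.64% among cells with a Foxp3 UMI, 19.6% and 8.43% without cells of a Mki67 or Top2a UMI, 17.3% and 7.06% without cells of 2 or more cell cycle UMIs, and 13.1% and 4.90% after thinning.

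Genes at least 2-fold higher in Cxcr3-positive than in Cxcr3-negative cells of both libraries numbered 101 with at least 2 Cxcr3 UMIs, 12 without the top 5% of cells by UMIs, 9 without Mki67 or Top2a, 10 without cell cycle UMIs, 30 without shared barcodes, 21 after thinning, 6 with weighting to UMI deciles, 20 with equal cell weights, 90 with a minimum of 5 CPM and 29 with 20 CPM. Lower genes numbered 8 with a minimum of 20 CPM.

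Between CD25KO and CD25WT in Cxcr3-positive cells, 149 genes were higher with the stricter cell filter, 808 among cells with a Foxp3 UMI, 188 after thinning, 176 with 5 CPM and 55 with 20 CPM. Lower genes numbered 48 with at least 2 Cxcr3 UMIs, 317 with a Foxp3 UMI, 58 without cell cycle UMIs, 64 after thinning, 55 with 5 CPM and 15 with 20 CPM. The setting with a Foxp3 UMI held 88 CD25KO and 59 CD25WT cells. In Cxcr3-negative cells, 443 genes were higher and 68 lower with a Foxp3 UMI, 135 higher and 69 lower with TMM factors and with median-of-ratios factors alike, 163 higher without ribosomal and mitochondrial genes in the total, and 393 higher and 59 lower with 5 CPM.

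Of the scored ratios of 2-fold or more, those that changed sign were of cell cycle genes, with S100a4 the exception. Ratios of genes named only from a list were not scored for this. Without the top 5% of cells, CD25WT ratios of Cxcr3-positive over Cxcr3-negative cells were -0.062 for Hist1h2ap, -1.12 for Birc5, -0.22 for Stmn1 and -0.86 for Cenpf. Among cells with a Foxp3 UMI, S100a4 stood at -1.28 in CD25WT. Without Mki67 or Top2a, Hist1h2ap stood at -0.90 and Rrm2 at -0.31 in CD25KO, and Birc5 at -0.43, Stmn1 at -0.054 and Cenpf at -0.87 in CD25WT. Without cells of 2 or more cell cycle UMIs, CD25KO ratios were -0.92 for Hist1h2ap, -1.37 for Rrm2, -0.085 for Birc5, -0.85 for Stmn1 and -0.50 for Cenpf. CD25WT ratios there were -0.43 for Rrm2 and -1.35 for Stmn1. Both cell cycle filters pick cells by cell cycle genes, so ratios of such genes under them are no separate result. Between CD25KO and CD25WT in Cxcr3-positive cells, Hist1h1b stood at -0.56 without Mki67 or Top2a and -1.54 without cell cycle UMIs. The cause was not tested. Tbx21 stayed above 0 in Cxcr3-positive over Cxcr3-negative cells under every alternative tried, at 1.30 to 2.06 in CD25KO and 1.99 to 3.32 in CD25WT.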

Other observations

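2 features of the CD25KO and CD25WT comparison were picked after their values were seen. The MHC class II gene H2-Aa, of antigen-presenting cells, was at 2.19 CPM in Cxcr3-positive CD25KO cells and 37.9 CPM in Cxcr3-positive CD25WT cells, but 2 CD25WT cells held 312 of the 336 UMIs of the class II genes there (92.9%). Gt(ROSA)26Sor, the transcript of the locus often used for reporters, was at 4.22 CPM in Cxcr3-positive CD25KO cells and 21.9 CPM in Cxcr3-positive CD25WT cells, and at 5.55 CPM in Cxcr3-negative CD25KO cells and 17.8 CPM in Cxcr3-negative CD25WT cells.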
